A study of Mus musculus with 4 samples.

Results

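The genes described here encode core proteins of the spliceosome and the main families of RNA-binding proteins that guide it, measured in mouse neutrophils with and without Mif, the gene of the cytokine macrophage migration inhibitory factor. They were taken by name: every gene whose symbol begins with Snrp, Sf3a or Sf3b and a digit, U2af, Prpf and a digit, Srsf and a digit, or Hnrnp, other than names marked as pseudogenes by "-ps". The rule found 70 gene identifiers of 47729 in the table, with 423 transcripts of 115220. Of the 70, 69 are annotated as protein-coding, and 1, Snrpert, is a processed pseudogene. By role they are 13 genes named for proteins of the small nuclear ribonucleoproteins (snRNPs), Snrpert among them, 13 subunits of SF3 and U2AF, 13 PRPF genes, 11 serine- and arginine-rich (SR) proteins and 20 heterogeneous nuclear ribonucleoproteins (hnRNPs).

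The spliceosome removes introns from pre-mRNA. U1 snRNP pairs with the 5′ splice site, U2AF and the SF3 complexes of U2 snRNP settle at the 3′ splice site and branch point, and the tri-snRNP with its PRPF proteins brings the machine to its catalytic form. SR proteins mostly promote and hnRNPs often repress the use of nearby splice sites. Many of these genes regulate themselves by making transcripts that keep an intron or include an exon with an early stop codon, a so-called poison exon, which leads to nonsense-mediated decay (NMD). Retention of introns in transcripts is also a known feature of maturing granulocytes.

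RNA came from neutrophils sorted by flow cytometry from bone marrow and spleen, in proportions that the labels do not state. All mice had the SKG background on BALB/c, in which a mutation of the T cell kinase gene Zap70 gives an arthritis-prone strain, and all had received curdlan, a beta-glucan that triggers disease in this strain, 8 weeks earlier. The groups were wild type and Mif -/-, with 2 libraries each, called wild type 1 and 2 and Mif -/- 1 and 2. The labels do not say whether the 2 libraries of a genotype are from different mice, and the p-values therefore reflect only how far these libraries differ, which may be technical variation. Total RNA depleted of ribosomal RNA was sequenced, and such libraries hold nuclear as well as cytoplasmic transcripts. In these bulk samples fewer cells of a type and less RNA per cell cannot be told apart.

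Values are FPKM, fragments scaled by transcript length and by the number of mapped fragments, summed over the transcripts of a gene. Each pair of values names replicate 1 before replicate 2, with wild type before Mif -/-. Mif, the targeted gene, reached 0.882 FPKM in wild type 1 and 2.88 FPKM in wild type 2, and each Mif -/- library lists it at 0. Relative depth, read from the smallest steps between low values, was 1.23 and 1 in wild type 1 and 2 and 5.28 and 4.80 in Mif -/- 1 and 2, and by their run names wild type was run in lane 2 and Mif -/- in lane 1. Depth, lane and genotype cannot be told apart. The 12 neutrophil marker symbols summed to between 109916 and 115983 FPKM, most of it S100a8 and S100a9. Ly6g, a surface marker of mouse granulocytes, rose from 519 and 491 FPKM in wild type to 918 and 936 FPKM in Mif -/- (limma, Benjamini-Hochberg adjusted p = 0.0364), while S100a8 stood at 41370 and 38838 against 35980 and 36080 FPKM. Of the 13 identifiers 6 lay above and 3 below wild type without overlap, and Ly6g was the 1 past the threshold. The 8 B and plasma cell markers summed to 196 and 159 FPKM in wild type against 35.6 and 41.3 FPKM in Mif -/-. Only 3 of these 8 reached a mean of 1 FPKM in a genotype and were tested. All 3 were lower in Mif -/- and past the threshold, against 0.342% of all genes. Others lay near 0, such as Cd79a at 0.161 and 0.155 against 0.0694 and 0.0763 FPKM. The 8 proliferation markers summed to 182 and 169 against 212 and 219 FPKM. Erythroid markers summed to 4.90 FPKM in wild type 1 and to between 16.2 and 20.4 FPKM elsewhere. The T cell markers summed to 62.3 to 72.8 FPKM, nearly all of it Cd3d, with Trac at 0 throughout, and the monocyte and macrophage markers to 47.8 to 64.6 FPKM. The part of these marker differences, and of depth and lane, in the results below was not tested.

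The retained-intron transcripts are shown first. The share of a gene's FPKM assigned to them was the readout on which most of these genes lay on the same side between genotypes. The mean share was lower in Mif -/- in 23 of the 27 splicing genes tested, beside 89.0% of all genes tested. The direction was therefore that of all genes and not particular to these. There were 124 retained-intron transcripts, in 40 genes by name. Of these, 43 contain a whole intron that lies between coding exons of another transcript of the gene. A further 41 read past a 5′ splice site into such an intron, and 28 only read in from the intron side to a 3′ splice site. The last 12 do none of these, so part of the share does not come from keeping such an intron. Srsf2-203 and Srsf4-201, each the 1 retained-intron transcript of its gene, are among the 12. Positions are those of GRCm38 and GENCODE M21. In the lines below, capitals mark the GT that opens an intron or the AG that closes it. Windows hold 20 exon and 40 intron bases, except for Hnrnpdl-204, where the whole intron of 285 bases is given. They come from 8 of the 11 genes whose retained-intron share was lower in Mif -/- at an unadjusted limma p under 0.05. Such a p with a lower share was found in 34.3% of all genes tested. The lines are examples of sequence that counts toward the share.
U2af2-206, 3′ splice site, chr7:5069404-5069463, plus strand: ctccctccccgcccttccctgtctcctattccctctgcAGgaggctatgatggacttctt
Sf3b4-202, 5′ splice site, chr3:96173080-96173139, plus strand: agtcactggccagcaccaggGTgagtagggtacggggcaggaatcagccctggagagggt
Snrpc-202, 5′ splice site, chr17:27840487-27840546, plus strand: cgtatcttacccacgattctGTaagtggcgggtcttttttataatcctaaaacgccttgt
Hnrnpm-203, 5′ splice site, chr17:33677234-33677293, minus strand: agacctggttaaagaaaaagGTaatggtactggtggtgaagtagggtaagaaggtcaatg
Hnrnpk-204, 5′ splice site, chr13:58399116-58399175, minus strand: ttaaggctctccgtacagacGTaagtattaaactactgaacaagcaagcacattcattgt
Hnrnpu-202, 5′ splice site, chr1:178335842-178335901, minus strand: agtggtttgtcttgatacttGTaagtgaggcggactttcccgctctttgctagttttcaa
Hnrnpl-206, 5′ splice site, chr7:28815333-28815392, plus strand: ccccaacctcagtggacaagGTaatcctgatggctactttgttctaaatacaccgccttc
Hnrnpdl-204, whole intron, chr5:100036196-100036480, minus strand: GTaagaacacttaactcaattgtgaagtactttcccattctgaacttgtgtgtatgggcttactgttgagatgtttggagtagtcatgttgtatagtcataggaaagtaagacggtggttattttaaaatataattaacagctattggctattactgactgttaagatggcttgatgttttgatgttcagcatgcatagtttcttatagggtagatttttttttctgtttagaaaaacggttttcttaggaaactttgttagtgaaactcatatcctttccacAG
The U2af2 site is the kind that its own protein recognises: U2AF2 binds the pyrimidine tract before a 3′ splice site, and of the 20 bases before this AG 85% are C or T.

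Together the 70 genes summed to 1604 and 1792 FPKM in wild type 1 and 2 and to 1618 and 1723 FPKM in Mif -/- 1 and 2. The genotypes overlapped, with wild type 2 highest. On the log2(FPKM + 1) scale, which understates differences of low genes, 67 genes reached a mean of 1 FPKM in a genotype and were tested. None of the 67 passed over all 10221 genes tested (limma, Benjamini-Hochberg adjusted p under 0.05), against 0.342% of all genes, and the lowest adjusted p was 0.125 for Snrpert and 0.144 for the next genes, Sf3b5 and Hnrnpa0. An unadjusted limma p under 0.05 was found for 12 of the 67, 6 higher and 6 lower in Mif -/-, while 17.9% of all genes had one. The genotypes did not overlap in 31 of the 67, 17 above and 14 below, while 52.8% of all genes did not overlap. Both shares of the splicing genes lie near those of all genes. The median difference was -0.01 over the 67 and 0.02 over all genes, with 32 positive and 35 negative.

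The spread between replicates exceeded the difference between genotypes in wild type and was smaller than it in Mif -/-. The median absolute log2 difference was 0.17 between the wild-type libraries, 0.09 between the Mif -/- libraries and 0.15 between the genotype means. Replicate values compare single libraries, whereas the genotype value compares means of 2 libraries, which vary less. The ranking is therefore only descriptive. All 10 SR genes tested were higher in wild type 2 than in wild type 1, as were 46 of all 67 splicing genes tested. Of the same 67, 51 were higher in Mif -/- 2 than in Mif -/- 1.

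**Figure D1:**
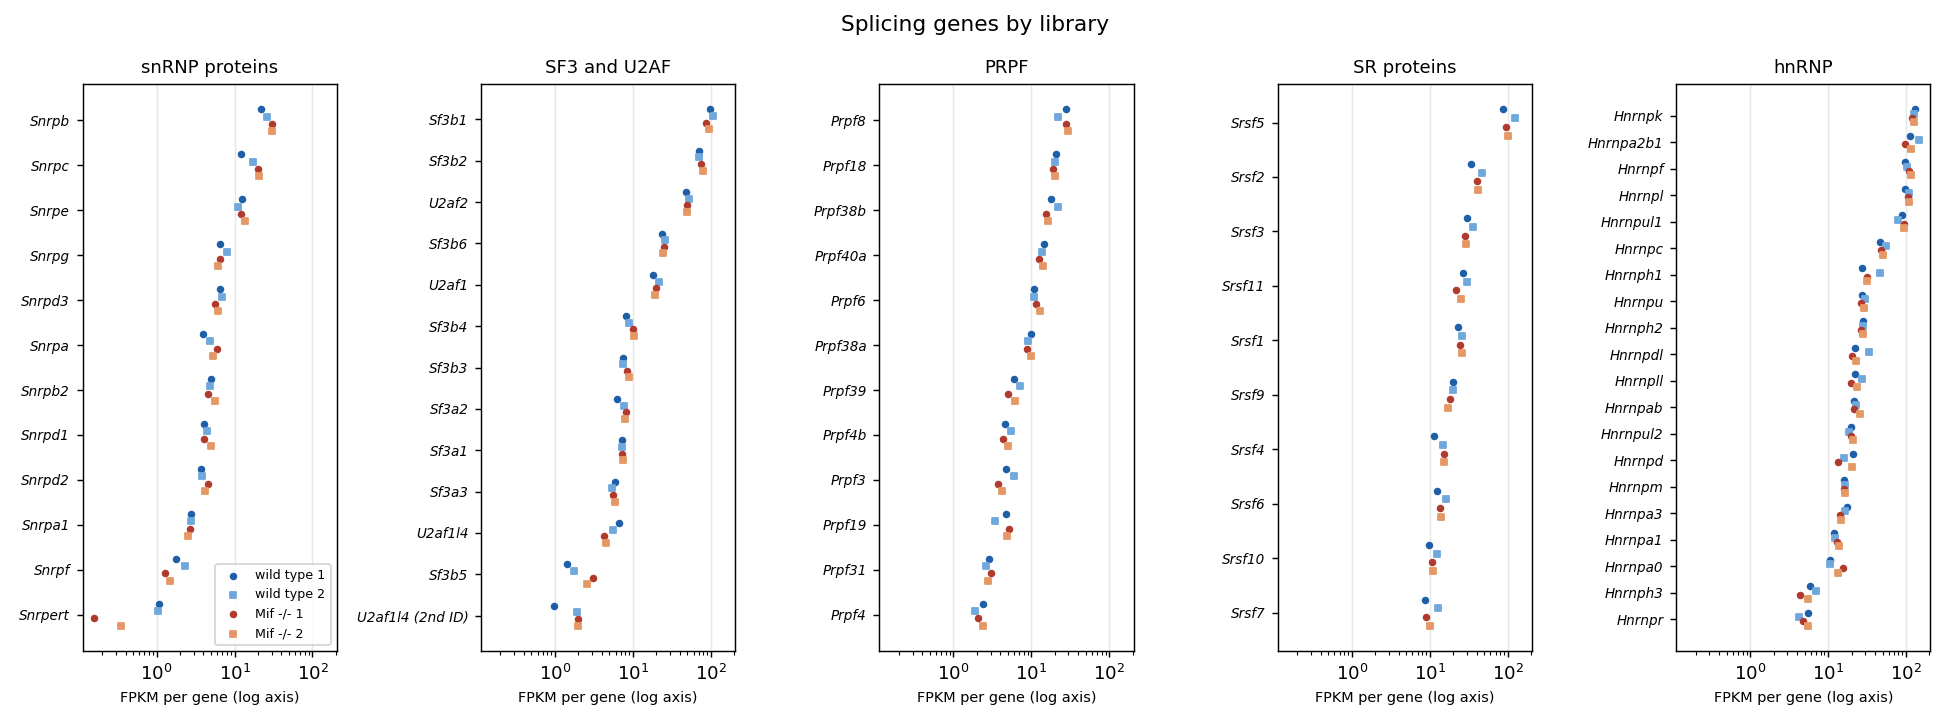
FPKM of the 67 tested genes in each of the 4 libraries, by role, on a log axis, sorted by mean level. Levels run from below 1 FPKM for the pseudogene Snrpert to about 126 FPKM for Hnrnpk, and for most genes the 4 points lie close together relative to the range between genes.

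Among snRNP genes, 0 of 12 tested passed, 3 had an unadjusted p under 0.05 upward and 2 downward, 1 of the latter being the pseudogene Snrpert. Snrpb encodes the Sm protein B of the ring around each spliceosomal snRNA and was the highest of the group. Wild type held 21.8 and 26.0 FPKM and Mif -/- 30.1 and 30.6 FPKM, so both Mif -/- libraries lay above both wild-type ones. The log2 difference was 0.34 ± 0.10 (SE, 2 libraries a genotype; Benjamini-Hochberg adjusted p = 0.210, limma). Snrpc, a U1 snRNP protein that steadies pairing with the 5′ splice site, stood at 12.1 and 17.2 against 19.8 and 20.7 FPKM. Wild type 1 was the low library there, and the difference was 0.46 ± 0.17 (limma, Benjamini-Hochberg adjusted p = 0.261). Snrpa, the U1 protein A that binds a stem-loop of U1 snRNA, stood at 3.90 and 4.84 against 5.97 and 5.36 FPKM. The Sm protein gene Snrpf lay the other way, at 1.77 and 2.34 against 1.27 and 1.47 FPKM. Snrpn, a paralog of Snrpb known mostly from brain, was not tested, at 0.00796 FPKM in wild type 1 and 0 in the other libraries.

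Snrpert was the lowest of the group. It was tested only because its wild-type mean reached 1 FPKM, so a difference in that direction was built into the choice, and its p supports nothing. Wild type held 1.09 and 1.05 FPKM and Mif -/- 0.159 and 0.349 FPKM, a log2 difference of -0.73 ± 0.13 (limma, Benjamini-Hochberg adjusted p = 0.125). It is a retrocopy of the Sm protein gene Snrpe on chromosome 2, and 276 of its 279 bases are identical to Snrpe-204, so reads of the 2 genes could have been divided between them. Snrpe itself stood at 12.5 and 11.1 against 12 and 13.6 FPKM. Summed, they stood at 13.6 and 12.1 against 12.2 and 13.9 FPKM, which overlap, and the difference turned to 0.02.

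Subunits of SF3 and U2AF recognise the branch point and the 3′ splice site. Of the 13 identifiers, all tested, 0 passed, 2 had an unadjusted p under 0.05 upward and 1 downward. Sf3b1, the large SF3b subunit that holds the branch-point helix, was the highest at 97.6 and 107 FPKM in wild type against 86.9 and 95.4 FPKM in Mif -/-. Its genotypes did not overlap by a narrow margin, and the difference was -0.16 ± 0.09 (limma, Benjamini-Hochberg adjusted p = 0.405). Sf3b5, the smallest SF3b subunit, stood at 1.42 and 1.75 against 3.10 and 2.60 FPKM, a difference of 0.58 ± 0.12 (limma, Benjamini-Hochberg adjusted p = 0.144). It had the largest positive difference of the 67. Sf3b4, which contacts pre-mRNA near the branch point, stood at 8.25 and 8.79 against 10.1 and 10.2 FPKM, and the scaffold subunit Sf3b3 at 7.39 and 7.57 against 8.48 and 8.82 FPKM.

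U2af1l4, a relative of the small U2AF subunit U2af1, is the name the authors' values give to a pair of identifiers at one place on chromosome 7. GENCODE M21 names the transcripts of the second, ENSMUSG00000109378, Gm49396, so there it is a record of its own. The main one, ENSMUSG00000078765, stood at 6.64 and 5.58 against 4.26 and 4.47 FPKM, a difference of -0.40 ± 0.10 (limma, Benjamini-Hochberg adjusted p = 0.169). The other, ENSMUSG00000109378, was the lowest of the group, at 0.986 and 1.9 against 1.96 and 1.95 FPKM, with wild type 1 low. Their positions overlap, so reads could be divided between them. Summed, they stood at 7.63 and 7.48 against 6.21 and 6.42 FPKM, and the difference was -0.23. U2af1 itself and the large subunit U2af2 overlapped between genotypes, U2af2 at 48.6 and 52.8 against 49.9 and 49.9 FPKM.

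PRPF genes encode proteins that assemble and remodel the tri-snRNP and the active spliceosome. Of 12 tested, 0 passed and 2 had an unadjusted p under 0.05, both downward. Prpf8, the scaffold of the catalytic core, was the highest at 28.3 and 22 against 27.7 and 29.2 FPKM, which overlap. Prpf4, a U4/U6 protein, was the lowest at 2.42 and 1.89 against 2.05 and 2.37 FPKM, which overlap too. Prpf3, its partner on U4/U6, stood at 4.71 and 6.03 against 3.77 and 4.21 FPKM, a difference of -0.35 ± 0.13 (limma, Benjamini-Hochberg adjusted p = 0.272). Prpf38b stood at 18.1 and 21.9 against 15.3 and 16.4 FPKM, a difference of -0.31 ± 0.11 (limma, Benjamini-Hochberg adjusted p = 0.265). Prpf19, the ubiquitin ligase of the complex that bears its name, stood at 4.69 and 3.40 against 5.23 and 4.82 FPKM, with wild type 2 low. Prpf6, which bridges U5 and U4/U6, stood at 11 and 10.9 against 11.7 and 12.9 FPKM. Its difference of 0.15 turned to -0.01 when only coding transcripts were summed. Prpf40b, a U1-associated protein gene, was at 0.0155 FPKM in Mif -/- 2, at 0 in the other libraries and not tested.

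SR proteins bind exonic enhancers and recruit U1 and U2AF. None of the 10 tested passed, and 0 had an unadjusted limma p under 0.05. Srsf5 was the highest at 86.1 and 123 FPKM in wild type, with both Mif -/- libraries between them at 94.2 and 102 FPKM. Srsf7 was the lowest of those tested, at 8.72 and 12.9 against 9.02 and 10.1 FPKM, again inside the wild-type spread. Srsf11 stood at 26.4 and 29.7 against 22 and 25.2 FPKM, Srsf9 at 19.7 and 19.9 against 18 and 17.4 FPKM, and Srsf3 at 30.1 and 35.6 against 28 and 28.9 FPKM. These 3 lay lower in Mif -/- without overlap. Srsf4 lay higher, at 11.4 and 14.8 against 15.1 and 15.1 FPKM, with wild type 2 just under the Mif -/- pair. Srsf12 was listed at 0 in all libraries and not tested.

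The hnRNPs held the most abundant genes of the set. None of the 20 passed, and an unadjusted p under 0.05 was found for 1 upward and 1 downward. Hnrnpk, a KH-domain protein that binds C-rich RNA, was the highest of all 70 at 128.9 and 128.5 against 119.1 and 127.6 FPKM, and Hnrnpr the lowest of the family at 5.45 and 4.29 against 4.81 and 5.58 FPKM. Hnrnpa0, an intronless A/B-type hnRNP, stood at 10.5 and 10.4 against 15.5 and 13.5 FPKM, a difference of 0.43 ± 0.09 (limma, Benjamini-Hochberg adjusted p = 0.144). Its wild-type libraries lay close together and both Mif -/- libraries lay above them. Hnrnpa3, from the same subfamily, stood at 17.4 and 16.3 against 14.4 and 14.5 FPKM, a difference of -0.21 ± 0.08 (limma, Benjamini-Hochberg adjusted p = 0.261). Hnrnph3 stood at 5.90 and 7.09 against 4.40 and 5.51 FPKM. Hnrnpf, which binds G-tracts, stood at 97.9 and 104 against 110 and 114 FPKM, and Hnrnpa1, a repressor of exon inclusion, at 11.9 and 12.1 against 13.1 and 14.0 FPKM. Hnrnpa1 and Hnrnpa3 have many processed copies in the genome, so their values are uncertain.

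**Figure D2:**
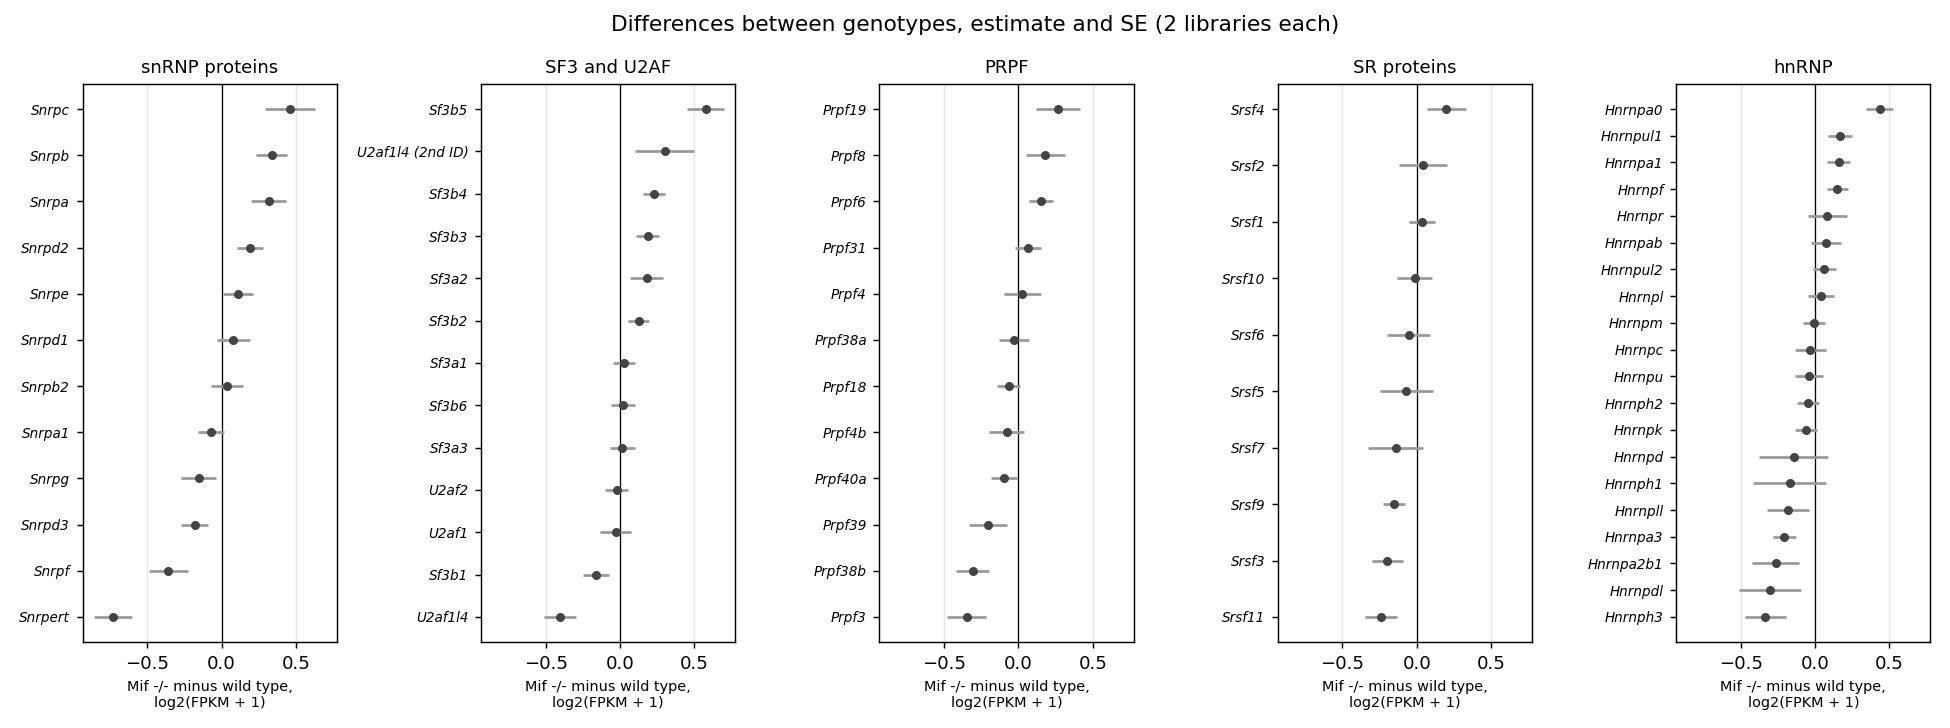
Difference in log2(FPKM + 1), Mif -/- minus wild type, with its standard error, for the 67 tested genes by role (2 libraries per genotype). Points lie on both sides of 0 in each role group, from -0.73 for Snrpert to 0.58 for Sf3b5, and none passed over all genes.

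The number of calls depended on which wild-type library was kept. Without wild type 1, 22 of the 67 passed (5 higher and 17 lower), beside 26.0% of all genes. Without wild type 2, 13 passed (10 higher and 3 lower), beside 28.8% of all genes, so the balance of directions turned with the library. Each of these fits takes the lone wild-type library to vary like the Mif -/- pair. Leaving out either Mif -/- library gave 0. Genes called in both fits that left out a wild-type library were a smaller share of the 67 than of all genes tested. These calls are therefore not a result about the splicing genes. Among the 67 they were Hnrnpa0 (differences 0.44 and 0.43), Sf3b5 (0.48 and 0.67), U2af1l4 under its main identifier (-0.29 and -0.51) and Snrpert (-0.71 and -0.74). Snrpert was tested only through its wild-type level.

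Other splicing genes, 109 in 5 lists, gave 0 past the threshold among 107 tested, with 3 unadjusted limma p under 0.05 upward and 12 downward and a median difference of -0.03. Such a p was found in 17.9% of all genes, 853 upward and 977 downward, so the counts over the 107 do not set these genes apart. In the list of SR kinases and related proteins, 14 tested, 5 had such a p and all 5 were lower in Mif -/-. Over all genes, 977 of the 10221 tested had such a p and were lower. Whether this list differs from all genes was not tested. Clk1, a kinase that phosphorylates SR proteins, stood at 116 and 141 against 83.4 and 97.4 FPKM (-0.50 ± 0.13; limma, Benjamini-Hochberg adjusted p = 0.171). The SR-like exon activator Tra2b stood at 30.4 and 29.2 against 23.4 and 23.8 FPKM, and the large SR-related protein gene Srrm2 at 70.8 and 65.2 against 52.2 and 57.0 FPKM. All 3 were lower without overlap.

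Among the 33 other splicing regulators, 2 were upward and 6 downward at an unadjusted limma p under 0.05. Ptbp2, a polypyrimidine tract-binding repressor, stood at 16.3 and 15.3 against 10.1 and 11 FPKM, Rbm39, a U2AF-related co-factor, at 161 and 166 against 116 and 129 FPKM, and Khsrp, a KH-type RNA-binding protein gene, at 15.9 and 17.4 against 22.7 and 21.8 FPKM. Of 23 genes for complex B, C and step factors, 1 was upward, the U2AF-related Puf60, at 18.6 and 21.8 against 25.7 and 25.6 FPKM. Sf1, the branch-point binding protein, stood at 70.1 and 75.8 against 62.6 and 65.5 FPKM, and Syf2 at 30.4 and 34.1 against 36.4 and 35.6 FPKM. Of 15 exon junction and decay genes 1 was downward, the decay kinase Smg1, at 27.3 and 22.9 against 18.8 and 20.7 FPKM. Its neighbours in that list by p were the exon junction genes Magoh (30.0 and 30.4 against 26.4 and 28.8 FPKM) and Magohb (1.36 and 1.85 against 1.14 and 1.29 FPKM). Of 22 tested LSM and other snRNP proteins 0 had such a p. The lowest p there belonged to Lsm3 (12.5 and 14.0 against 15.3 and 15.3 FPKM), Ddx23 (6.07 and 7.48 against 7.41 and 7.96 FPKM) and Snrnp25 (1.56 and 1.45 against 1.87 and 1.66 FPKM).

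In summed FPKM, splicing genes held a larger part in retained-intron transcripts than all protein-coding genes pooled. That part was lowest in the Mif -/- libraries in both sets. Over the 70 genes it was 16% and 19.8% in wild type 1 and 2 and 13.2% and 14.5% in Mif -/- 1 and 2. Over all protein-coding genes it was 4.44% and 5.50% against 3.73% and 4.02%. Pooling weighs each gene by its FPKM, so abundant genes such as S100a8, at 41370 FPKM in wild type 1, count most. Neither gene level nor the number of annotated retained-intron transcripts was matched. The contrast is therefore not shown to be a trait of splicing genes. Both sets have both Mif -/- libraries below both wild-type libraries and wild type 2 highest. In FPKM, retained-intron transcripts of the 70 genes summed to 257 and 355 against 213 and 250, and their coding transcripts to 1243 and 1286 against 1311 and 1358.

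**Figure D3:**
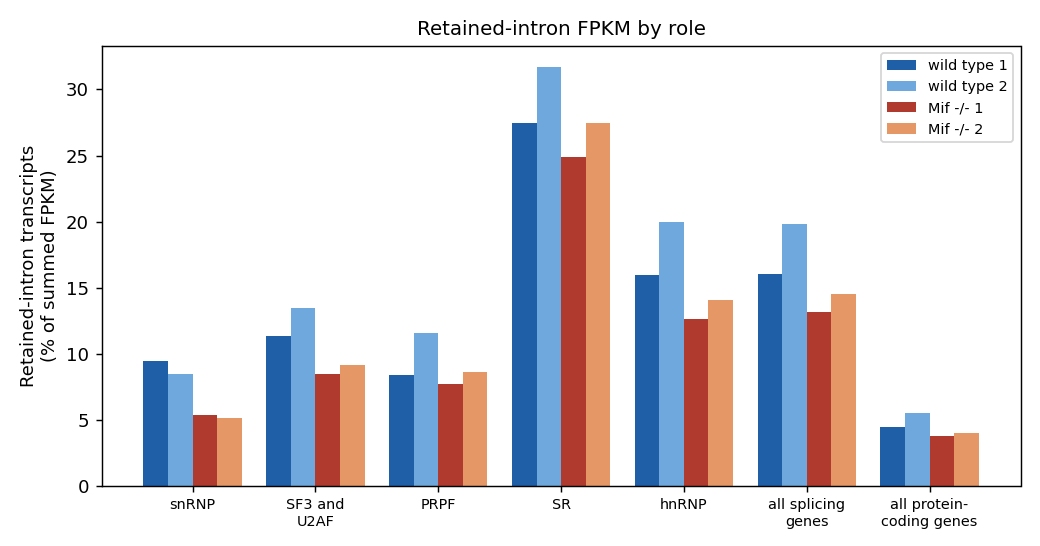
Percentage of summed FPKM in retained-intron transcripts, by role, over all 70 splicing genes and over all protein-coding genes, 1 bar per library. The SR genes are highest, between 24.9% and 31.7%, and wild type 2 has the highest bar in each set but the snRNP proteins.

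By role, the SR genes had the highest percentage, 27.5% and 31.7% in wild type against 24.9% and 27.5% in Mif -/-. The hnRNPs stood at 16% and 19.99% against 12.7% and 14.1%. SF3 and U2AF stood at 11.4% and 13.5% against 8.49% and 9.16%, and snRNP proteins at 9.46% and 8.43% against 5.34% and 5.10%. The PRPF genes overlapped, at 8.36% and 11.6% against 7.74% and 8.65%.

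Per gene, the retained-intron share was tested in 27 splicing genes, those with a mean of at least 5 FPKM, an FPKM above 0 in all libraries and a mean share between 5% and 95%. The mean share was lower in Mif -/- in 23 of the 27 and higher in 4, and the median difference was -4.14 percentage points. Over all 2108 genes tested the same way it was lower in 1877, or 89.0%, with a median of -3.58 points, so the direction was that of all genes. None of the 27 passed (limma, Benjamini-Hochberg; lowest adjusted p = 0.103), against 0.19% of all genes. An unadjusted p under 0.05 was found for 12 of the 27, against 35.8% of all genes, and for 11 with a lower share, against 34.3%. Mif -/- lay below wild type without overlap in 18 of the 27, against 67.2% of all genes. Over all genes tested, the share was lower in 81.7% without wild type 2 and in 88.0% without wild type 1. Among the splicing genes, without wild type 2 the share was lower in 18 of 26. Without wild type 1 it was lower in 24 of 27, and 5 passed, Srsf2, Snrpc, Hnrnpa2b1, U2af2 and Hnrnpl, beside 23.0% of all genes.

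**Figure D4:**
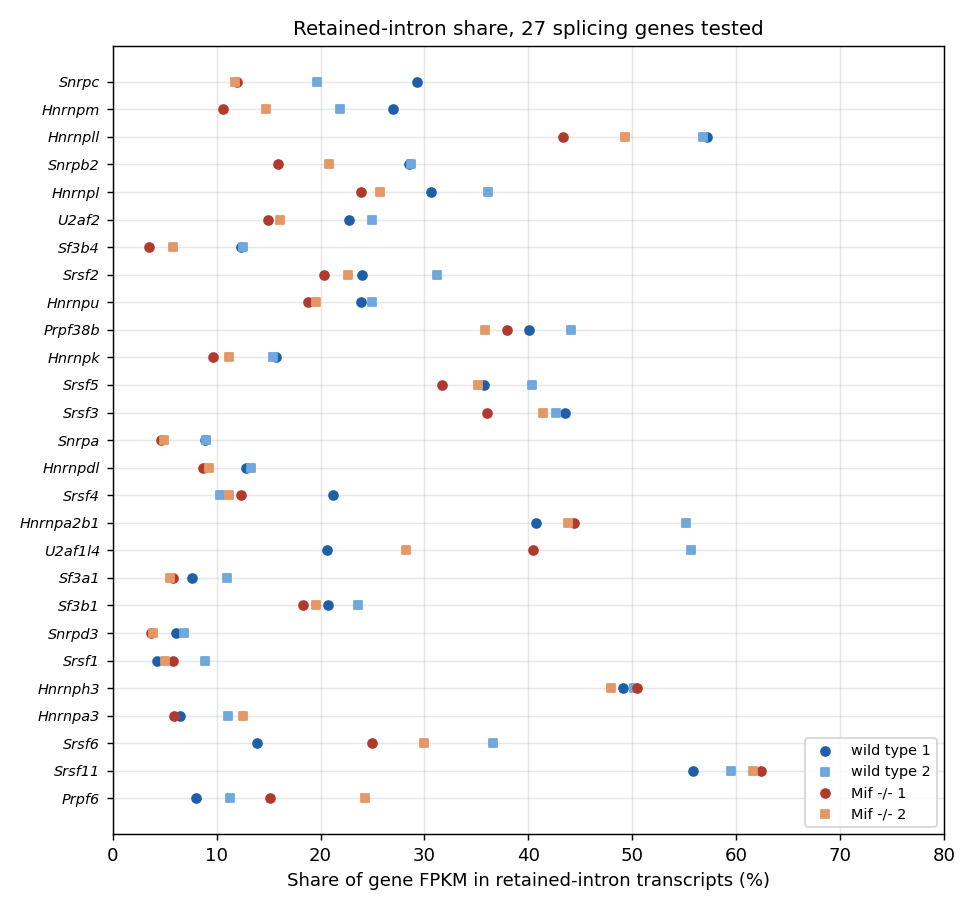
Share of each gene's FPKM in retained-intron transcripts in the 4 libraries, for the 27 splicing genes tested, ordered by the difference between genotypes. In 18 genes both Mif -/- points lie to the left of both wild-type points, and in Prpf6 and Srsf11 both lie to the right.

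U2af2 had the lowest p for this share. It stood at 22.7% and 24.9% in wild type and at 15% and 16.1% in Mif -/-, a difference in means of -8.30 points that did not pass (limma, Benjamini-Hochberg adjusted p = 0.103). Its gene level overlapped, as given above, and 4 retained-intron transcripts carry the share. The largest, U2af2-206, whose 3′ splice site is printed above, held 12% and 11.6% of the gene against 6.44% and 7.65%. Sf3b4, with 1 such transcript, stood at 12.4% and 12.5% against 3.53% and 5.82%. Its wild-type libraries were alike and both Mif -/- libraries lay below 6%.

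Snrpc stood at 29.3% and 19.6% against 12% and 11.7%, a difference of -12.6 points and the largest of the 27, with the wild-type libraries nearly 10 points apart. Snrpc-202, its 1 retained-intron transcript, is 6107 bases long and keeps 2 introns. Snrpb2, the U2 snRNP protein B″ gene and highest in its group, stood at 28.5% and 28.7% against 15.9% and 20.8%. Snrpa stood at 8.85% and 8.97% against 4.63% and 4.90%, a narrow spread within each genotype.

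The hnRNPs gave 6 further genes with both Mif -/- libraries lower. Hnrnpm, which binds GU-rich RNA, stood at 27% and 21.8% against 10.6% and 14.7%. Hnrnpll, a regulator of Ptprc (CD45) exon choice in lymphocytes and plasma cells, was highest in the family at 57.2% and 56.8% against 43.3% and 49.3%. Hnrnpl, its paralog, stood at 30.6% and 36.2% against 23.9% and 25.7%. Hnrnpu, a nuclear scaffold protein gene, stood at 23.9% and 25.0% against 18.8% and 19.5%, Hnrnpk at 15.7% and 15.4% against 9.64% and 11.2%, and Hnrnpdl at 12.8% and 13.3% against 8.69% and 9.26%. Each of these 6 had an unadjusted limma p under 0.05 and none passed. The B and plasma cell markers, where Hnrnpll is known to act, were also lower in Mif -/-, as given above, and their part in its values was not tested.

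Srsf11 was highest among SR genes and among all 27, and lay higher in Mif -/-, at 55.8% and 59.5% against 62.4% and 61.6%. Prpf38b, highest among PRPF genes, stood at 40.1% and 44.1% against 37.9% and 35.8%, lower in Mif -/- without overlap. U2af1l4, highest in SF3 and U2AF, stood at 20.6% and 55.6% against 40.4% and 28.2%, so its wild-type libraries were the lowest and the highest. Prpf6 lay higher in Mif -/-, at 8.00% and 11.3% against 15.1% and 24.3%.

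Transcripts annotated for NMD made up 3.68% and 4.34% of the FPKM of the 70 genes in wild type and 3.50% and 4.09% in Mif -/-, which overlap. Per gene, 12 were tested, 7 lower and 5 higher in Mif -/-, and 0 passed (limma, Benjamini-Hochberg; lowest adjusted p = 0.305), beside 1.23% of all genes. An unadjusted p under 0.05 was found for 2 of the 12, against 14.1% of all genes. Over all 567 genes tested the NMD share was lower in 225, or 39.7%, and higher in 342. The median difference was 1.71 points over all genes and -0.099 points over the 12. Without overlap, Mif -/- lay above wild type in 2 of the 12 and below in 3, against 191 and 82 of the 567. Whether the 12 differ from all genes was not tested. The lines below give, for 4 of the genes described here, the bases from the start of the exon that holds the early stop to the stop itself, which is in capitals.
Srsf3-201, exon 4 of 7, chr17:29039454-29039487, plus strand: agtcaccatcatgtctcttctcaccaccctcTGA
Hnrnpl-213, exon 6 of 13, chr7:28817335-28817393, plus strand: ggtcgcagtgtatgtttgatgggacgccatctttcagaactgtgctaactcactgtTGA
Hnrnpll-203, exon 7 of 14, chr17:80044976-80045022, minus strand: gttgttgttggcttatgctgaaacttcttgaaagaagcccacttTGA
Prpf38b-208, exon 4 of 7, chr3:108907809-108907847, minus strand: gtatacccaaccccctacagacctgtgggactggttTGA
These stops lie 548, 842, 807 and 317 bases before the last exon junction of their transcripts, in that order.

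Prpf38b, highest among PRPF genes, stood at 30.8% and 33.2% of its FPKM in NMD transcripts in wild type and at 43.5% and 49.0% in Mif -/-, without overlap. The difference in means of 14.2 points did not pass (limma, Benjamini-Hochberg adjusted p = 0.305). Its 1 coding transcript held only 25.6% and 16.2% against 15.8% and 11.3%. Snrpe, the 1 snRNP gene with a tested NMD share, stood at 10.3% and 14.8% against 4.90% and 3.57% (limma, Benjamini-Hochberg adjusted p = 0.330).

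Of the SR and hnRNP genes with a tested NMD share, Hnrnpd alone did not overlap, at 13.3% and 16.6% against 12.96% and 12.02%. Srsf3 stood at 16% and 19.7% against 17.7% and 16.8%, Hnrnpl at 21.3% and 23.7% against 20.3% and 26.1%, and Hnrnpll, highest among hnRNPs, at 24.9% and 22.1% against 14.9% and 35.4%. These 3 overlapped, and in Hnrnpll the Mif -/- libraries were the lowest and the highest. Srsf1 and Srsf6 had shares too low to be tested and did not overlap, Srsf1 at 1.92% and 1.42% against 2.39% and 2.67% and Srsf6 at 4.39% and 3.54% against 3.20% and 2.20%, on opposite sides. The second identifier of U2af1l4 was at 100% in NMD transcripts in all libraries, so it had no share to test.

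Single transcripts were tested where the gene had at least 5 FPKM and the transcript a mean share between 5% and 95%, which left 160 transcripts of 48 genes. None passed (limma, Benjamini-Hochberg; lowest adjusted p = 0.141), beside 0.466% of all transcripts tested. An unadjusted p under 0.05 was found for 21, 13 higher and 8 lower in Mif -/-, against 15.6% of all. The genotypes did not overlap in 91, against 55.0% of all, with 45 above and 46 below. Among 89 coding transcripts 36 lay above without overlap, beside 33.7% of all coding transcripts tested, and 14 below, beside 18.8%. Among 43 retained-intron transcripts 2 lay above, beside 6.06% of all tested, and 23 below, beside 57.2%. The directions by type were those of all transcripts. Coding and retained-intron shares of a gene add to at most 100%, so these counts are not independent.

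The leading transcript was mostly stable. Of 56 tested genes with more than 1 annotated transcript, 39 had the same leading transcript in all libraries and 47 had a coding one in all. It differed between genotypes and matched within them in 1, Srsf3, the SR gene with the smallest protein of the family. Its retained-intron transcript Srsf3-204 held 42.5% and 40.4% in wild type against 35.3% and 40.7% in Mif -/-, and the coding Srsf3-202 held 40.5% and 37.7% against 46.3% and 41.8%. The shares were thus close in 3 of the 4 libraries, and neither had an adjusted p under the threshold.

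**Figure D5:**
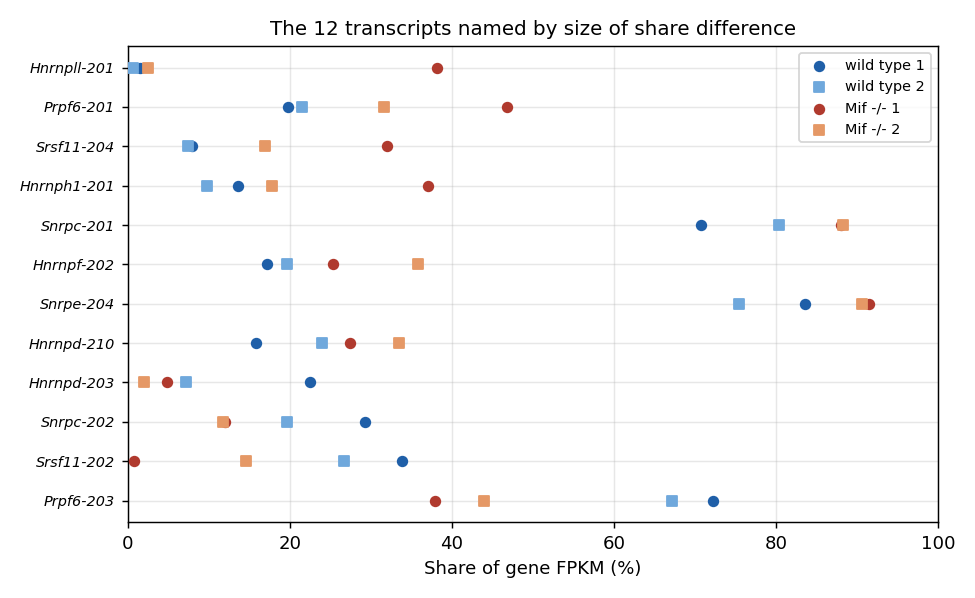
Share of the gene's FPKM held by the 12 transcripts with the largest difference in mean share among those tested whose genotypes did not overlap, in the 4 libraries. For Hnrnpll-201, Srsf11-204 and Hnrnph1-201 the difference comes mostly from Mif -/- 1.

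Among the tested transcripts whose genotypes did not overlap, the largest share difference was in Prpf6. Prpf6-203 held 72.2% and 67.2% in wild type against 38% and 44.0% in Mif -/- (limma, Benjamini-Hochberg adjusted p = 0.141), and Prpf6-201 held 19.8% and 21.5% against 46.8% and 31.7%. These records have the same coding sequence, and an identical run of 3045 bases covers 3045 of the 3048 bases of Prpf6-203. Their annotated exons differ in 1 intron, shifted by 1 base, and at their outer ends. Reads inside that run cannot be told apart between them, and the pair held 92.0% and 88.7% against 84.8% and 75.7%.

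Srsf11-202, a coding transcript, held 33.9% and 26.7% against 0.838% and 14.6%, and Srsf11-204, also coding, 7.94% and 7.40% against 32.0% and 16.9%. The Mif -/- libraries differed from each other by more than 10 points in both. Hnrnpll-201 held 1.52% and 0.666% against 38.1% and 2.45%, a difference carried by Mif -/- 1. Hnrnph1-201 held 13.6% and 9.82% against 37.1% and 17.8%, and Hnrnpf-202, which has the same coding sequence as Hnrnpf-201, 17.2% and 19.7% against 25.3% and 35.9%.

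Snrpc-201, the coding transcript, held 70.7% and 80.4% against 88.0% and 88.3%, the complement of Snrpc-202 described above. Snrpe-204, the main coding transcript of that gene, held 83.6% and 75.5% against 91.5% and 90.6%, with both Mif -/- libraries higher. In both genes the Mif -/- libraries were within 1 point of each other.

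Hnrnpd encodes AUF1, a protein of AU-rich elements whose isoforms differ by cassette exons. Hnrnpd-203 lacks a coding exon of 57 bases, shown in capitals, that the longer Hnrnpd-211 includes.
Hnrnpd-211, cassette exon, chr5:99976534-99976590, minus strand: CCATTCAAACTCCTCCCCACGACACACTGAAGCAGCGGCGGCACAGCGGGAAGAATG
Hnrnpd-203 held 22.6% and 7.26% in wild type against 4.84% and 1.97% in Mif -/-, and wild type 1 carried most of that difference. Hnrnpd-210, a short coding record, held 15.9% and 23.9% against 27.4% and 33.5%. Below the limit of 5 FPKM and so not tested, Prpf31-201, a coding transcript of a U4/U6 protein gene, held 70.1% and 63.6% against 8.99% and 37.8%, with the Mif -/- libraries far apart. Each of the 12 tested transcripts kept its direction in every alternative run that tested it, 99 values together, and none passed in any of them. Not every run tested all 12. Hnrnpll-201 without Mif -/- 1 and Hnrnpd-203 without wild type 1 fell under the limit of a 5% mean share. Genes under 20 FPKM were left out of the run with that limit.

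The authors' deposited table gives a fold and an adjusted p per transcript. In it 1 of the 396 splicing-gene transcripts with an adjusted p was under 0.05, beside 45 of 65729 in all, and that one, Hnrnpk-219, stood at 0.0120 FPKM or lower in every library. Of transcripts with a mean of at least 1 FPKM, the lowest adjusted p in the authors' deposited table was 0.193, for the coding Hnrnpul1-201, at 47.2 and 48.2 against 64.1 and 63.1 FPKM and a deposited fold of 1.33.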

How the data were processed

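The authors deposited a table of FPKM per transcript and library, with their own fold, p-value and q-value columns, per the file headers. The submitters' processing notes name the build GRCm38 and, without roles or order, StringTie 2.1.4, HISAT2 2.1.0, R 3.6.1 and SAMtools 1.9. Annotation release and strand setting: not given in the sources used here. Overlapping genes may therefore share reads, and an exact 0 may be a failed estimate. No counts were used, so no counting interval is given.

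FPKM was summed per gene identifier. Those averaging 1 FPKM or more in a genotype were tested on log2(FPKM + 1) with limma 3.58.1 in R 4.3.3 (trended empirical Bayes, no covariates, 2 against 2 libraries), adjusted by Benjamini-Hochberg over all genes tested, with a threshold of 0.05. Shares of a gene's FPKM were fitted the same way on the arcsine square root, for genes of at least 5 FPKM and mean shares between 5% and 95%. Transcript types, positions and sequences came from GENCODE M21 (GRCm38), which holds 114237 of the 115220 transcripts. Scripts were tested on simulated data. Relative depth was estimated from the spacing of low FPKM values.

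Named per role were the highest and lowest tested genes, up to 5 genes of lowest p without overlap of genotypes, genes not tested, and the 12 transcripts of largest share difference without overlap. Further lists were named by up to 3 genes of lowest p. A few others were added after their values were seen. The genes and lists were chosen with earlier results of these data known. Alternatives covered the pseudocount, filters, scaling, coding transcripts only, a replicate block, the scale of shares and each library left out.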

Additional observations from a re-analysis of the deposited data

How the results depend on the processing

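No splicing gene, transcript share, retained-intron share or NMD share passed under any alternative other than leaving out a wild-type library. Splicing genes past the threshold ranged from 0 to 22 over the 4 fits that each left out a library, and splicing genes with a changed retained-intron share from 0 to 5. Their median difference of -0.01 became 0.075 with protein-coding transcripts only, where that of all genes was 0.07. Over all genes, 35 passed as reported, and 0 without a filter on low values, 16 at a mean of 5 FPKM, and 15 each when scaled to the same total without 7SL and 7SK, scaled to the same median ratio, or with coding transcripts only. Leaving out a library gave 0 to 2938. With the replicate block, 34 genes and 0 splicing genes passed. Genes with a changed retained-intron share, 4 as reported, were 2 on the log ratio, 2 at 20 FPKM, 2 with no limit on the share, 10 with the replicate block and 0 to 476 without a library. Transcripts with a changed share (55) and genes with a changed NMD share (7) both fell to 0 with the replicate block, and to 0 and 0 to 6 without a library. The count of 23 splicing genes with a lower retained-intron share was 12 of 13 at 20 FPKM, where fewer genes were tested. The Prpf6 difference reversed to -0.00767 with coding transcripts only and that of Snrpert to 0.0184 when summed with Snrpe. The cause was not tested. Of 274 alternative values for 23 named gene differences, 251 kept direction and side of the threshold, 21 newly passed and 2 reversed.

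The replicate numbers name libraries, and the labels do not say whether they also pair them. Over genes, the differences of replicate 1 and 2 correlated at 0.0065 between genotypes, which cannot decide it. Of the 67 splicing genes tested, 46 were higher in replicate 2 than in replicate 1 in wild type and 51 in Mif -/-. With 2 libraries per genotype and unequal depth, low transcripts were limited most: 59 and 54 splicing-gene transcripts were listed at 0 in wild type against 39 and 35 in Mif -/-.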
